A study of Drosophila melanogaster with 55 samples.

Results

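Simple repeats, or microsatellites, are short motifs repeated head to tail. Described here are those whose printed unit has 4 or more letters and consists of the purines A and G on 1 strand, hence of the pyrimidines T and C on the other. A repeat name such as (CTTTT)n prints the whole unit, as it was written at the annotated copies. The same tandem array can therefore stand under any rotation of its unit and under either strand. Of 9263 repeat names in the RNA count tables, 238 had such a unit. From these, 70 names were chosen by 1 measured value, a mean count of at least 10 over the 12 RNA libraries. The mean count is thus a property of the choice and not a finding. Just inside that limit were (CTTTCT)n at 10.67, then (CTCTTCT)n at 11.25 and then (AGGGAG)n at 11.42. Just outside were (TCTTT)n at 9.58, then (AGAAAG)n at 9.08 and then (AAAGG)n at 7.67. A limit of 5 would have kept 82 names, and a limit of 20 would have kept 58.

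The series studied how constitutive heterochromatin is set up in early Drosophila melanogaster embryos, and asked whether the acetyltransferase Gcn5 and the histone H3 lysine 9 methyltransferase SetDB1 (Eggless in flies) act in it. Total RNA was taken from single stage 5 embryos, with 3 libraries for each of 4 genotypes. Gcn5 KD embryos had the genotype GFP-SetDB1, nos-Gal4; Gcn5 RNAi, and w KD embryos had GFP-SetDB1, nos-Gal4; w RNAi. F578A embryos were SetDB1 F578A/CyO, and WT embryos were labelled SetDB1 WT. Both knockdowns thus carried the GFP-tagged SetDB1 transgene and the nos-Gal4 driver, which is active in the germline. The target of the control knockdown, w (white), is an eye colour gene. CyO, a balancer chromosome, is named in the F578A genotype alone, so the substitution and the balancer cannot be told apart. The tables held no genes, so the levels of Gcn5, w and SetDB1 could not be checked. The labels do not say whether libraries of a group came from separate crosses, so the p-values measure only the spread between these samples.

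Purine-rich repeats are best known in flies from the satellite DNA of pericentromeric heterochromatin. There, long arrays of AAGAG and of the related unit AAGAGAG are among the most abundant simple satellites of Drosophila melanogaster. Both lie in silent chromatin, which becomes marked by methylation of histone H3 lysine 9 in the early embryo. Shorter tracts of GA repeats also lie in promoters and introns of active genes, where GAGA factor binds them. RNA that reaches such a tract within a longer transcript is counted under the name of the repeat.

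The 70 names fell into 24 families, a family being all rotations and both strands of 1 printed unit. The units AGAG and AGAGAG thus stand as separate families. The families held 171 names of any count, and 7 of them had chosen names on both strands. The largest had 7 chosen names and 4 had only 1. By letters, 11 names had 4, a further 16 had 5, a further 34 had 6 and the remaining 9 had 7. For 10 names the printed unit was itself a multiple of a shorter one, of 2 letters in 5 names and of 3 letters in the other 5. An example is (TCTC)n, which is TC written double. Annotated length, which the choice did not use, ran from 27 to 4488 bases per name with a median of 298.

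Most of the names were written in pyrimidines. Of the 238 candidates 160 were written in pyrimidines and 78 in purines, and of the 70 chosen names 60 and 10 respectively. The purine-written candidates covered 12456 bases, which was 18.13% of the candidates' annotated length, and the pyrimidine-written ones 56258 bases. No read was counted for 35 of the purine-written and 33 of the pyrimidine-written candidates in any library. The written strand is a property of the annotation. Since it is not stated whether reads were counted by strand, the direction of transcription cannot be read from these names.

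Per annotated length, 2 purine-written names stood far above the rest. Counts were divided by annotated length alone, without regard to read length, so values of short and long names are not strictly comparable. The 170 bases of (AGGA)n had a mean of 25603 counts per kb, and the 33 bases of (GAAAAG)n had 86896. The next name, (TCTTTTT)n, had 7321 on 53 bases, and the lowest was (TTCTC)n with 13.7 on 1614 bases. Over all 238 candidates, which the limit on the mean count does not restrict, the purine-written names had 621 counts per kb and the pyrimidine-written names 506. Without (AGGA)n and (GAAAAG)n, the other 76 purine-written candidates had 41.6 counts per kb, and the order of the strands turned. It therefore rested on 2 names of short annotated length. Among the chosen names, where the limit removed most of the purine-written length, the values were 3322 and 701 counts per kb, and 219 and 701 without those 2 names. In units of 2 letters the pyrimidine-written names had 247 counts per kb and the purine-written 182, and in units of 3 letters the order was 2785 and 5217.

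**Figure D1:**
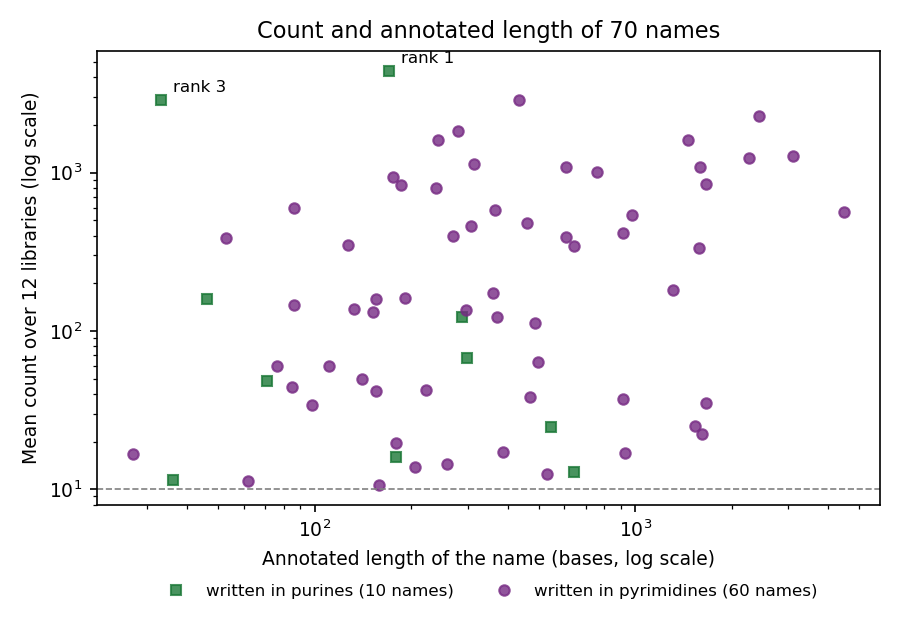
Mean count over 12 libraries against annotated length in bases, both on log scales, for 70 names; squares are written in purines, circles in pyrimidines, and the dashed line is the limit of 10 counts. The squares labelled rank 1 and rank 3 are (AGGA)n and (GAAAAG)n, which are high on 170 and 33 bases.

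Within families the purine-written names mostly had fewer counts per length. Of 28 candidate families with names on both strands and any count, 23 had fewer counts per kb on the purine-written names. Of the 21 such families that hold a chosen name, 19 did so, and the exceptions were AAGG and AAAAGG, which hold the 2 names above. Names were chosen by mean count and most of them were written in pyrimidines, so the 19 of 21 is partly set by the choice. The satellite units of heterochromatin were among the 19. For the satellite AAGAG, the 5 names written in purines covered 2996 bases and received 14 counts in all 12 libraries together, never more than 3 in a library. The 5 names written in pyrimidines covered 4573 bases and received 4816 counts, between 111 and 705 per library. For the 7-letter unit AAGAGAG, the 3 purine-written names covered 1705 bases with no count in any library, and the 3 pyrimidine-written names covered 246 bases with 1888 counts, between 69 and 292 per library. Chosen names of these satellites were (TCTTC)n and (CTCTT)n and (TTCTC)n for the first unit, with (TCTCTTC)n and (CTCTTCT)n for the second. Per length they were not alike, with 211 counts per kb for (TCTTC)n and 13.7 for (TTCTC)n, and with 1699 for (TCTCTTC)n and 181 for (CTCTTCT)n.

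Counts were concentrated in few names. The 5 highest held 39.29% of all counts on the 70 names, the 10 highest 58.29% and the 20 highest 81.42%. By family, the unit AAGGAG held 18.12% over 7 names, AAAAG held 13.63% over 6 names and AAGG held 13.17% over 2. The families of AAAAGG with 10.82% and AAAG with 8.29% and AGAG with 8.21% followed. At the low end, 24 names had a mean count under 50.

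Library totals on repeats ran from 1923426 to 3209030 counts. Counts of each name were scaled to CPM, the counts relative to the library size after TMM normalization. Across the 70 names, Gcn5 KD replicate 1 lay a median of 0.37 above its group on the log2 scale and replicate 3 lay 0.30 below. The shifts were 0.14 and -0.15 for w KD replicates 1 and 3 and within 0.1 of 0 for the other libraries.

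Summed over the 70 names, the scaled count was 12347 ± 2158 CPM in Gcn5 KD and 12655 ± 845 CPM in w KD (SD, n = 3 each). It was 15359 ± 348 CPM in F578A and 15625 ± 228 CPM in WT (SD, n = 3 each). The 6 knockdown libraries lay between 10098 and 14400 CPM, all below the 6 others, which lay between 14964 and 15809 CPM. This separation depended on the name (GAAAAG)n, with 224 CPM in Gcn5 KD replicate 1 and 2138 CPM in F578A replicate 1. Without that name, the sum of Gcn5 KD replicate 1 lies above that of F578A replicate 1. Within each experiment the groups overlapped. As a share of all repeat counts the names took 1.18% ± 0.232 in Gcn5 KD, 1.3% ± 0.0321 in w KD, 1.6% ± 0.105 in F578A and 1.54% ± 0.0462 in WT (SD, n = 3 each). These values are relative to repeat counts, and the knockdowns and the other groups belong to separate experiments. Fewer cells with such RNA, less of it per cell and more RNA of other repeats cannot be told apart in whole embryos.

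**Figure D2:**
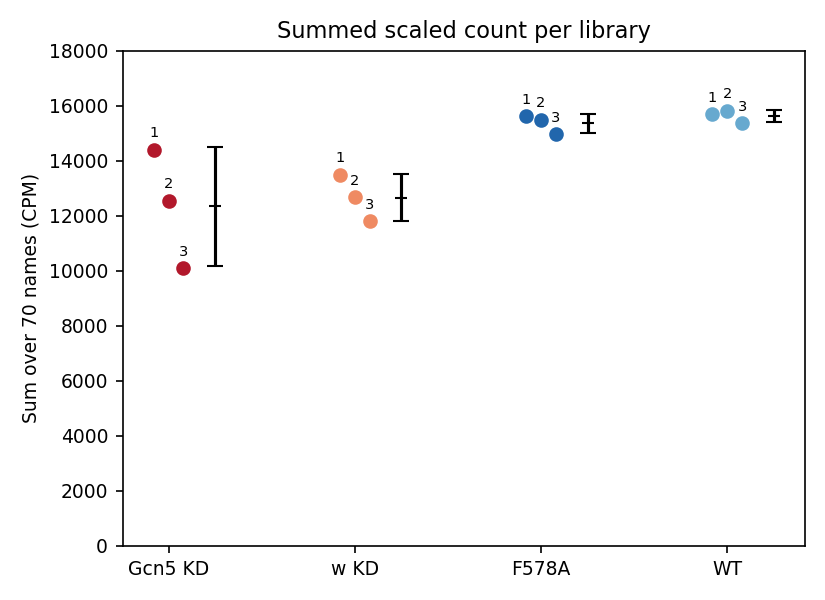
Sum of the scaled counts (CPM) of the 70 names in each library, labelled by replicate number; the bars give the mean and SD of 3 libraries. All 6 knockdown libraries lie at or below 14400 CPM and the 6 others at or above 14964, a separation that depends on (GAAAAG)n.

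The names with the highest counts differed in how steady they were. For (AGGA)n, the Gcn5 KD libraries had 1665, 2075 and 1605 CPM and the w KD libraries 1301, 1232 and 1925. The F578A libraries had 1833, 1710 and 1655 CPM and the WT libraries 1894, 1849 and 1729. All 4 groups overlapped in this name, and its level varied less than 2-fold over the 12 libraries. The pyrimidine-written (CTTCTC)n was as even, from 931 CPM in w KD replicate 3 to 1634 in Gcn5 KD replicate 2. By contrast (GAAAAG)n ran over a wide range, with 224, 541 and 430 CPM in Gcn5 KD and 288, 1139 and 741 in w KD. It had 2138, 1618 and 1002 CPM in F578A and 1921, 1341 and 1424 in WT. Every Gcn5 KD library was below every F578A and WT library, while w KD replicate 2 reached into the range of F578A.

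Of the other names with high counts, (TCTC)n had 570 to 1211 CPM and (TCCTTC)n had 272 to 924 CPM, with overlap of all groups. The range was 192 to 654 CPM for (TTTTC)n, and 273 to 730 CPM for (TTTC)n. In both, the low end was a w KD or Gcn5 KD library and so was the high end. Over all 70 names the SD within groups, on the log2(CPM + 0.5) scale, had a median of 0.528. It was lowest for (CTCTTC)n at 0.145 and highest for (GAAAA)n at 1.44, and 7 names exceeded 1.

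**Figure D3:**
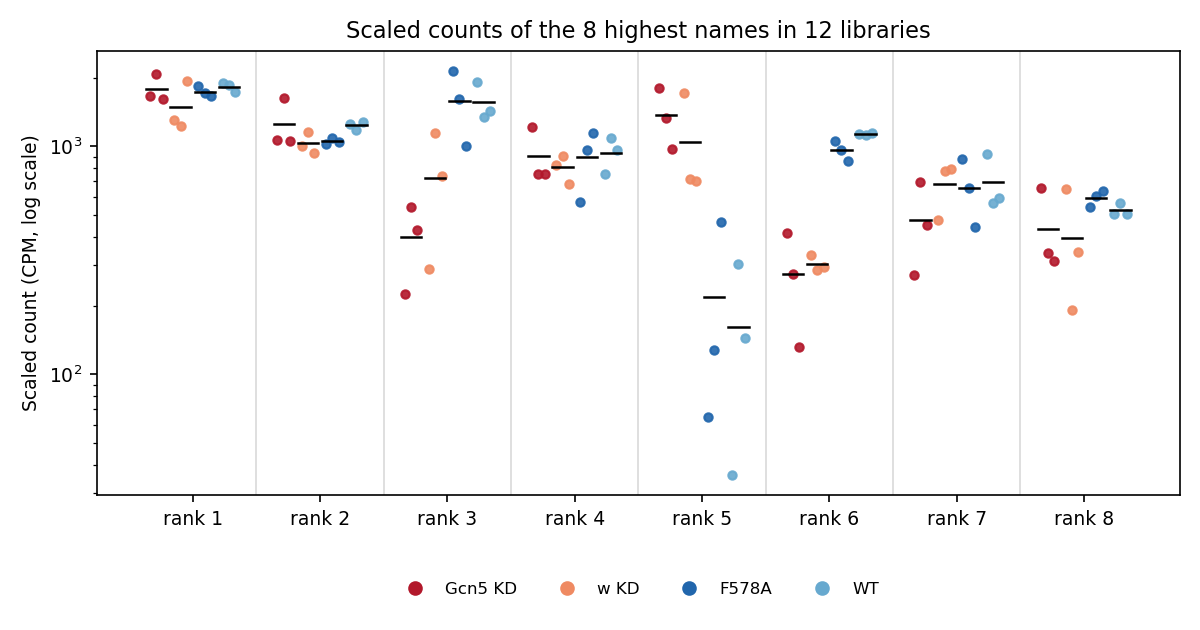
Scaled counts (CPM, log scale) of the 8 names with the highest mean in 12 libraries, points being libraries and bars group means. In order of rank they are (AGGA)n then (CTTCTC)n then (GAAAAG)n then (TCTC)n then (CTTTT)n then (CTCCTC)n then (TCCTTC)n and last (TTTTC)n; ranks 5 and 6 separate both knockdown groups from both others, in opposite directions.

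The first comparison set Gcn5 KD against w KD, the same driver with another target. Of the 70 names 60 passed the filter on low counts and none passed the test (edgeR quasi-likelihood test, Benjamini-Hochberg adjusted over all names tested, threshold 0.05). Over all 2142 names tested 0.0934% passed. At an unadjusted edgeR p under 0.05 there were 4 names, or 6.67%, against 5.56% of all names, and DESeq2 called 0. The log2 fold changes ran from -1.64 to 1.59 with a median of -0.13, against 0.01 for all names, and 23 of the 60 were positive. Of all 2142 names, 1088 were positive. Without replicate 1 of both groups the median was -0.42 and still no name passed. In 8 names, or 13.3%, the 3 Gcn5 KD libraries lay wholly on 1 side of the 3 w KD libraries, 7 below and 1 above, where 9.52% of all names tested did so. Over all 2142 names, 98 lay below and 106 above.

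The name with the smallest p was (TCTCCT)n, a unit of the AAGGAG family. Its Gcn5 KD libraries had 132, 179 and 90.1 CPM and its w KD libraries 276, 295 and 224. All Gcn5 KD libraries lay below all w KD libraries. The log2 difference was -1.0 ± 0.328 (SE), with an adjusted p of 0.497 in edgeR. With the replicate number as a block it was -1.04 with an adjusted p of 0.015.

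For (CCTTC)n the Gcn5 KD libraries had 10.6, 12.5 and 9.79 CPM and the w KD libraries 18.1, 41.8 and 40.2, again without overlap. The log2 difference was -1.64 ± 0.545 (SE), with adjusted p = 0.497 in edgeR and 0.0445 with the replicate block. The third name past the threshold with the block was (GAAAAG)n, whose values are given above. It fell by 0.76 on the log2 scale, with an adjusted p of 0.0445 in edgeR with the block and 0.993 without it. These 3 names were 5.0% of the 60 tested, all lower in Gcn5 KD, and 2.1% of all names were called lower with the block. The numbers were treated as pairs because same-numbered libraries of these groups deviated together. Over the 70 names, however, deviations of Gcn5 KD replicate 3 correlated at 0.42 with w KD replicate 2 and at 0.28 with w KD replicate 3. This pairing was chosen from the same counts and is not stated in the labels, so the 3 calls depend on it.

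Of the 23 names with a positive difference, the largest differences were in names of low count, with no call. The satellite name (CTCTTCT)n had 64, 18 and 16 counts in Gcn5 KD and 19, 4 and 10 in w KD. The groups overlapped, and the log2 difference of 1.59 ± 0.710 (SE) had an adjusted p of 0.894 in edgeR. It was 0.88 without Gcn5 KD replicate 1 and 2.21 without w KD replicate 1. This name had 2, 0 and 0 counts in F578A and 0, 2 and 0 in WT. For (AGAA)n the libraries had 8.09, 18.8 and 20.1 CPM in Gcn5 KD and 2.20, 8.06 and 5.97 in w KD. The groups did not overlap, but their nearest libraries were almost equal, and the adjusted p was 0.902 in edgeR.

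Among purine-written names, (AAAAG)n had 5.54, 2.09 and 7.34 CPM in Gcn5 KD and 8.81, 12.6 and 21.9 in w KD. Its log2 difference was -1.56 ± 0.685 (SE, adjusted p = 0.894 in edgeR). For (CCTCT)n, annotated over 27 bases, no count was found in any Gcn5 KD library, and the w KD libraries had 2, 1 and 6. The F578A libraries had 75, 33 and 16 counts of it and the WT libraries 29, 9 and 28. It was not tested between the knockdowns, and with so few counts no fold is given.

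The satellite units did not separate the knockdowns. The main AAGAG name, (TCTTC)n, had 213, 82.6 and 50.9 CPM in Gcn5 KD and 160, 45.3 and 98.8 in w KD, a log2 difference of 0.15 ± 0.501 (SE). The main AAGAGAG name, (TCTCTTC)n, had 86.4, 29.8 and 25.9 CPM against 59.9, 40.8 and 40.2, a log2 difference of -0.04 ± 0.472 (SE). Both had an adjusted p of 0.993 in edgeR. In both names replicate 1 was the highest library of each group.

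When all rotations and both strands of a unit were summed, 22 of the 24 families could be tested and none passed, where 0.703% of all summed families and other names did. The unit AAAAGG alone had an unadjusted p under 0.05, with 741 ± 82.2 CPM in Gcn5 KD and 1145 ± 435 CPM in w KD (SD, n = 3 each). Its log2 difference was -0.67 ± 0.295 (SE), adjusted p = 0.764 in edgeR, and DESeq2 called 0 families.

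The second comparison set F578A against WT. Here 69 names were tested and none passed in edgeR, where 0.0418% of all 2395 names did. The unadjusted edgeR p was under 0.05 for 5 names, or 7.25%, against 5.39% of all names, and DESeq2 called 0. The median log2 fold change was 0.07, against 0.02 for all names, with a range of -0.81 to 1.17 and 45 of 69 positive. Of all 2395 names, 1259 were positive. In 12 names, or 17.4%, the groups did not overlap, 6 above and 6 below, where 12.4% of all names tested did so. Over all 2395 names, 121 lay above and 176 below.

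The smallest p belonged to (TCCTC)n, with 18.9, 22.0 and 29.9 CPM in F578A and 11.4, 11.1 and 10.8 in WT. All F578A libraries were higher, and the log2 difference was 1.08 ± 0.325 (SE, adjusted p = 0.653 in edgeR). The satellite name (CTCTT)n, a rotation of AAGAG on the pyrimidine strand, had 24.0, 30.1 and 31.2 CPM in F578A and 13.9, 16.7 and 19.2 in WT. It too was higher in 3 of 3 libraries, by 0.78 ± 0.296 (SE) on the log2 scale, with an adjusted p of 0.897 in edgeR. The far more counted rotation (TCTTC)n gave no such separation, with 91.6, 144 and 177 CPM against 106, 182 and 173.

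In the other direction, (CCTCCT)n had 38.7, 29.1 and 24.2 CPM in F578A and 67.5, 44.1 and 49.9 in WT, with all F578A libraries below all WT libraries. The log2 difference was -0.81 ± 0.296 (SE, adjusted p = 0.848 in edgeR). A highly counted name differed little. For (CTTCTC)n the F578A libraries had 1020, 1090 and 1044 CPM and the WT libraries 1255, 1179 and 1271, so every F578A library was lower. The log2 difference was -0.23 ± 0.0920 (SE), and its adjusted p was 0.897 in edgeR. The last of these 5 names, (TTTCC)n, had 17.6, 7.76 and 8.92 CPM against 6.13, 3.60 and 5.59, a log2 difference of 1.17 ± 0.478 (SE, adjusted p = 0.897 in edgeR).

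Of the 24 summed families none passed in F578A against WT, where 0.107% of all summed families and other names did, and DESeq2 called 0. An unadjusted p under 0.05 was found for 2 families. The sum of AGGAGG was 1000 ± 105 CPM in F578A and 1196 ± 23.9 CPM in WT (SD, n = 3 each), a log2 difference of -0.26 ± 0.105 (SE, adjusted p = 0.76 in edgeR). The other family was AGAGG, with a log2 difference of 0.80.

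The third comparison set the control groups of both experiments against each other, w KD against WT. The control libraries differ in the driver and RNAi construct named and belong to separate experiments, and these cannot be told apart. GFP-SetDB1 is named in the w KD genotype, but chromatin samples of SetDB1 WT are also labelled GFP-SetDB1. The labels thus do not settle whether the controls differ in that transgene. The same libraries are the controls of the comparisons above. Of 66 names tested 15 passed in edgeR, or 22.7%, where 23.5% of all 2257 names did. Of these, 5 were higher in w KD (7.58%, with 12.4% of all names higher) and 10 were lower (15.2%, with 11.1% of all names lower). The share called was thus near that of repeats in general. The median log2 difference was -0.28, against -0.06 for all names. The groups did not overlap in 26 names, 8 above and 18 below, or 39.4%, where 43.0% of all names tested did so. Over all 2257 names, 476 lay above and 494 below. DESeq2 called 17 names, or 25.8%, where it called 29.6% of all names.

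**Figure D4:**
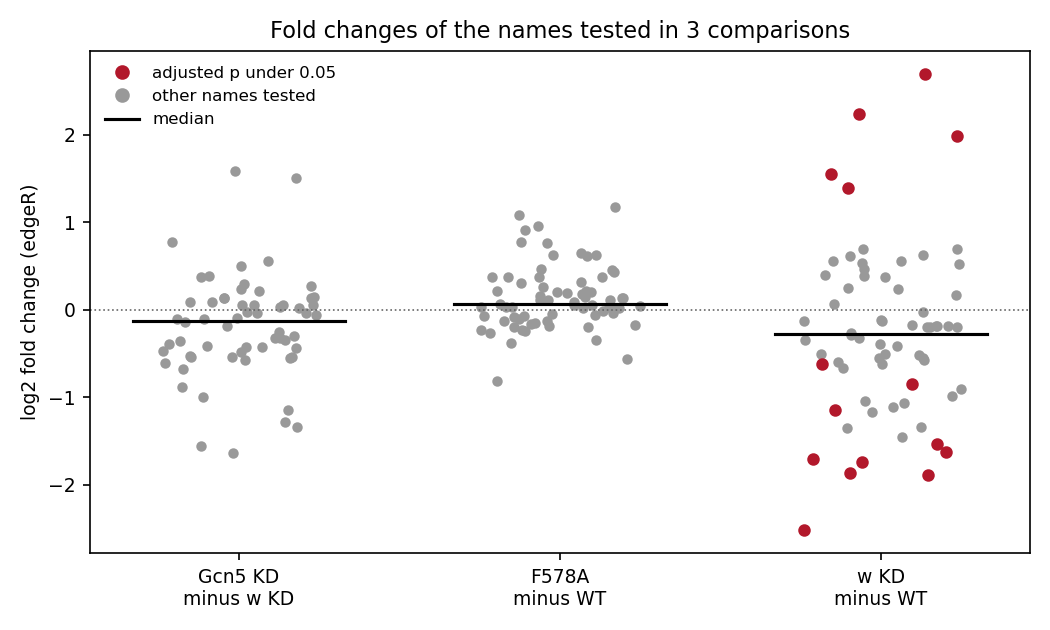
Log2 fold change (edgeR) of each name tested in 3 comparisons; red points have an adjusted p under 0.05, grey points do not, and black bars are medians, at -0.13, 0.07 and -0.28. Red points occur only between the control groups, 5 above 0 and 10 below.

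Among the lower names the smallest p belonged to (CTCCTC)n, a unit of 6 letters that equals CTC written double. It had 334, 287 and 295 CPM in w KD and 1134, 1121 and 1143 in WT. The groups were far apart, with a log2 difference of -1.89 ± 0.186 (SE, adjusted p = 0.000291 in edgeR). Next was (TTTCT)n, with 188, 212 and 140 CPM in w KD and 642, 521 and 612 in WT, a log2 difference of -1.71 ± 0.229 (SE, adjusted p = 0.00107 in edgeR).

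Further lower names came from other families. The w KD libraries of (TTTTCT)n had 97.8, 70 and 62.9 CPM and the WT libraries 197, 253 and 219, a log2 difference of -1.53. Those of (TTCTTTT)n had 297, 169 and 178 against 480, 450 and 498, a difference of -1.15. Those of (TTTTCTC)n had 9.25, 2.01 and 5.97 against 21.3, 37.3 and 42.3, a difference of -2.52. In all 3 names every w KD library was below every WT library, and each kept its call when any 1 library was left out.

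The other lower names did not keep their calls in every fit that left out 1 library. They were (CTCTTC)n at -0.85 and (TCCCCC)n at -1.74 and (TCCTTTT)n at -1.63 and (TTCTT)n at -0.62 and (TTTTTC)n at -1.87 on the log2 scale. Each lost its call in at least 3 of the 6 fits that left out 1 library. For (TCCTTTT)n this was so in all 6 fits, with adjusted p between 0.0517 and 0.164 in edgeR. With all libraries its adjusted p was 0.0403 in edgeR, near the threshold. For (CTCTTC)n the call was lost without w KD replicate 3, WT replicate 2 or WT replicate 3. For (TCCCCC)n it was lost without w KD replicate 2 or 3 or WT replicate 2 or 3, and the difference was -2.44 without w KD replicate 1. For (TTCTT)n only w KD replicate 2, and for (TTTTTC)n only WT replicate 2, could be left out. Scaling by total counts also ended the calls of (TTCTT)n and (TTTTTC)n.

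Among the higher names the largest difference was that of (CTTTT)n, with 1717, 716 and 706 CPM in w KD and 36.0, 305 and 144 in WT. The groups were apart, although WT varied widely, and the log2 difference was 2.70 ± 0.628 (SE, adjusted p = 0.0118 in edgeR). It was 3.64 without WT replicate 2. The smallest p among the higher names belonged to a purine-written name, (AGGAGA)n, which had 112, 121 and 71.3 CPM against 32.7, 19.6 and 24.4, a difference of 1.99 ± 0.344 (SE, adjusted p = 0.00379 in edgeR).

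The other higher names were (TCCCTC)n and (TCTCCT)n and (TCCTCC)n. The w KD libraries of (TCCCTC)n had 379, 310 and 389 CPM and the WT libraries 89.1, 185 and 137, a log2 difference of 1.39. Those of (TCTCCT)n had 276, 295 and 224 against 145, 60.8 and 66.3, a difference of 1.55. Those of (TCCTCC)n had 64.7, 42.8 and 29.9 against 6.13, 3.92 and 19.2, a difference of 2.24. All w KD libraries were above all WT libraries in these names. The last of them lost its call without WT replicate 1, at 2.00 with an adjusted p of 0.0612 in edgeR, and rose to 3.17 without WT replicate 3.

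Rotations of 1 unit were called in opposite directions. In the AAAAG family the name (CTTTT)n was higher in w KD while (TTTCT)n and (TTCTT)n were lower. The rotation (TTTTC)n, with 651, 192 and 342 CPM in w KD and 506, 565 and 503 in WT, overlapped between the groups. The sum of the family was 1910 ± 816 CPM in w KD and 1726 ± 96.0 CPM in WT (SD, n = 3 each), a log2 difference of 0.28 ± 0.256 (SE, adjusted p = 0.482 in edgeR). In the AGGAGG family the name (TCCTCC)n was higher and (CTCCTC)n lower. There the sum followed the more counted name, with 433 ± 37.6 CPM in w KD and 1196 ± 23.9 CPM in WT (SD, n = 3 each), a log2 difference of -1.33 ± 0.147 (SE, adjusted p = 0.000899 in edgeR). Rotations of a unit are the same DNA strand read from another base, so a name stands for a set of annotated copies. How reads that fit copies of several names were assigned is not stated, so values of rotations may not be independent.

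**Figure D5:**
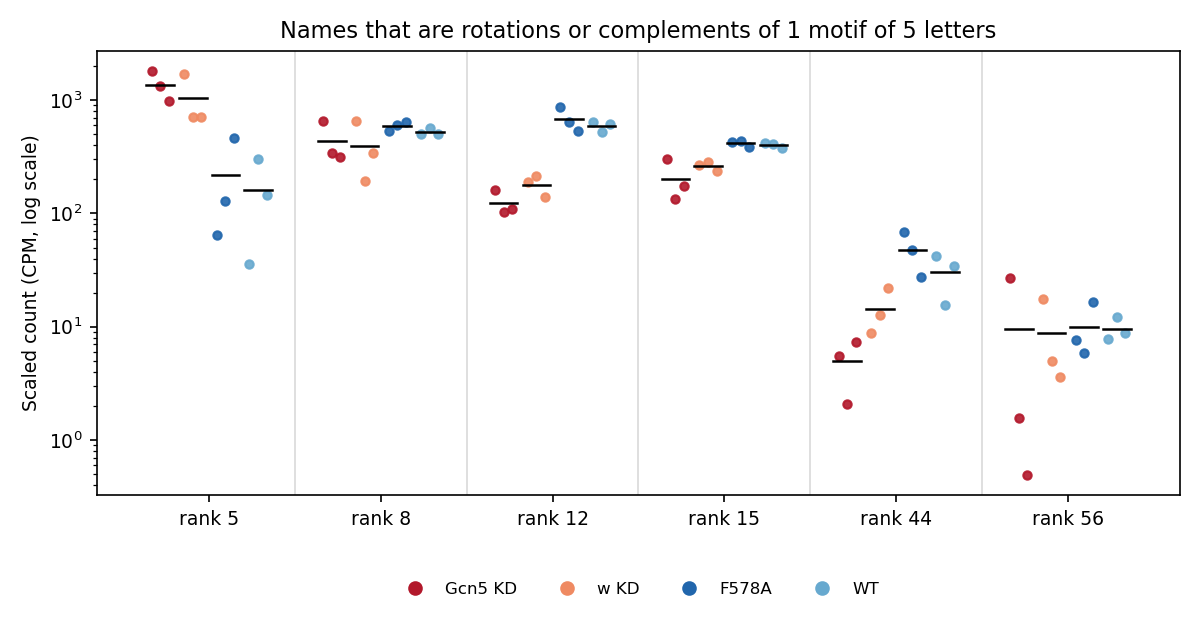
Scaled counts (CPM, log scale) of the 6 chosen names whose unit is a rotation or complement of AAAAG, points being libraries and bars group means. Ranks 5 and 8 and 12 and 15 are (CTTTT)n then (TTTTC)n then (TTTCT)n then (TTCTT)n, and ranks 44 and 56 are (AAAAG)n and (GAAAA)n; rank 5 is high in the knockdowns where ranks 12 and 15 are low.

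Over all 24 families, 6 passed between the control groups in edgeR, or 25%, where 23.5% of all summed families and other names did. The unit AGAGGG was higher in w KD, with 368 ± 35.2 CPM against 148 ± 46.9 CPM (SD, n = 3 each) and a log2 difference of 1.45. The units AGGAGG and AAGAGG and AAAAAG were lower, as were AAAAGAG and AAAAAGG, by -0.76 to -2.28 on the log2 scale. The satellite families of AAGAG, with 114 ± 59.1 CPM in w KD and 181 ± 44.9 CPM in WT, and AAGAGAG, with 51.8 ± 14.3 CPM and 67 ± 25.8 CPM (SD, n = 3 each), did not pass, with adjusted p = 0.354 and 0.684 in edgeR. Without WT replicate 3 the families called fell to 2.

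The 6 libraries that this comparison did not use gave the same directions. Between Gcn5 KD and F578A, all 15 names had the sign they had between w KD and WT, and 13 of them, or 86.7%, passed in edgeR. In 14 names, or 93.3%, the Gcn5 KD and F578A libraries did not overlap. Of all 530 names called between w KD and WT, 515 were tested and 508 had the same sign, 75.1% of those tested passed, and 82.1% of the 530 did not overlap, so the agreement was general. Across the 69 names tested in that comparison 28 passed, or 40.6%, where 30.1% of all names did. Of the 28 names, 6 were higher and 22 lower in Gcn5 KD. The split by direction over all names is not given here. The separation by experiment was large for (TTTCT)n, at -2.48 ± 0.301 (SE, adjusted p = 7.28e-05 in edgeR), and for (CTTTT)n, at 2.65 ± 0.519 (SE, adjusted p = 0.002 in edgeR). The names that did not pass were (TCTCCT)n at 0.53 and (TCCCCC)n at -1.12. This pair of groups adds the Gcn5 knockdown, the substitution and the balancer to the differences between the experiments, and these cannot be told apart.

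Finally, the effect of the Gcn5 knockdown was set against the effect of F578A in 1 fit of all 12 libraries. All 70 names were tested and none passed in edgeR, where 0.0407% of all 2458 names did. There were 5 names with an unadjusted edgeR p under 0.05, or 7.14%, against 5.45% of all names, and DESeq2 called 0. The median of the differences was -0.19, against -0.01 for all names. Scaling by total counts moved both medians, to -0.35 and -0.19. The smallest p belonged to (CCTTC)n, whose knockdown values are given above and which had 132, 97.9 and 43.9 CPM in F578A and 94.0, 34.0 and 69.9 in WT. The difference of both effects was -2.07 on the log2 scale, with an adjusted p of 0.619 in edgeR. For (AAAAG)n it was -2.16 with an adjusted p of 0.673, and for (TCCTC)n it was -1.63 with an adjusted p of 0.837. The other names with an unadjusted p under 0.05 were (CCTCT)n, at 0 in Gcn5 KD, and (TTTTTTC)n. The latter had 3.41, 0 and 0 CPM in Gcn5 KD, 7.93, 3.52 and 1.99 in w KD, 4.48, 10.3 and 15.3 in F578A and 5.31, 4.58 and 5.59 in WT. Its fitted difference rested on 1 library with reads in Gcn5 KD and is not given. The remaining satellite name, (TTCTC)n, had 3.41, 2.61 and 0.979 CPM in Gcn5 KD and 3.52, 2.01 and 8.76 in w KD. It had 15.4, 16.2 and 15.0 CPM in F578A and 8.18, 6.54 and 12.8 in WT, where every F578A library was higher, with an adjusted p of 0.897 in edgeR for the F578A effect.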

How the data were processed

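RNA counts per repeat name in 12 libraries of single stage 5 embryos, 3 per genotype, were used as the authors deposited them. The column headers name STAR output, per the file headers, and featureCounts 1.6.5 and the builds dm6 and BDGP6 are named, per the submitters' processing notes. The repeat annotation, the counting of multi-mapping reads and the use of strand are not given in the sources used here. Names with shared sequence may therefore share reads. Annotated length was taken as deposited.

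The names described and the lists beside them were chosen with earlier results of these data known. All 9263 names entered edgeR 4.0.16 in R 4.3.3, with TMM, filterByExpr, the quasi-likelihood test and Benjamini-Hochberg adjustment over all names tested (threshold 0.05). CPM values, and the counts of groups that do not overlap, used TMM factors over all 12 libraries. The difference of both effects was an interaction contrast. Families were summed before their own fit. The fitting was tested on simulated data. Errors are SD over libraries, or the SE of a log2 difference. For edgeR this SE was calculated back, as the size of the log2 difference over the square root of its F statistic. DESeq2 1.42.0, other scalings and filters, a replicate block, and fits without single libraries were alternatives. Gcn5 KD was also compared with F578A, a comparison chosen after seeing the data.

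Names given with values were those called in any of the planned comparisons, the 5 with the smallest p in each, the 8 with the highest mean CPM, the highest of each of the 6 largest families, and the satellite rotations. Others were added as extremes, or as rotations of a named unit, after their values were seen. Deviations from the group mean correlated between same-numbered Gcn5 KD and w KD libraries at 0.57, 0.23 and 0.41 over 2287 names, all above 0.1, and these were treated as pairs on the data alone. Between F578A and WT they correlated at 0.70, -0.11 and -0.04, which was not taken as pairing. Libraries of unlike number also deviated together there, F578A replicate 3 with WT replicate 2 at 0.75. Gcn5 KD replicate 3 and w KD replicate 2 correlated at 0.14 over 2287 names and at 0.42 over the 70 names. Gcn5 KD replicate 3 and w KD replicate 3 correlated at 0.28 over the 70 names. Across the experiments, w KD replicate 1 and WT replicate 2 correlated at 0.48. Shared deviation thus does not by itself mark pairs. The 29 peak lists were not used.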

Additional observations from a re-analysis of the deposited data

How the results depend on the processing

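No value given changed sign past the threshold under the alternatives run. For single names, each in the comparisons that named it, 35 alternative values lost a call and 2 gained one, beside (GAAAAG)n with the replicate block. Of the summary values 118 stayed within 1.5 times or 1 SD of the value reported and 14 moved further. With the replicate block, 3 names were called between Gcn5 KD and w KD in place of 0, and between w KD and WT 2 families in place of 6, with a median over the names of -0.40. The block called 10 names in place of 15 between w KD and WT, or 15.2%, where it called 13.8% of all names. The numbers do not pair the samples of w KD and WT. In F578A against WT the block called no name, where it called 0.292% of all names. The median between Gcn5 KD and w KD was -0.42 without replicate 1 of both groups, and -0.46 to -0.05 over the fits that left out 1 library. Between F578A and WT the median was 0.14 with total counts, 0.11 with simple repeats only, and 0.06 to 0.13 without single libraries. Between w KD and WT it was -0.29 to -0.05, with 10 to 15 names and 2 to 8 families called. The cause of these shifts was not tested. Low counts limit 24 names with a mean under 50. The description of genome arrays and of their overlap with peaks was not run, since no genome or repeat annotation was used here.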
